A study of Drosophila melanogaster with 66 samples.

Results

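The regions described here carried acetylation of histone H4 at lysine 16 (H4K16ac) on the autosomes of Drosophila melanogaster embryos at every stage from nuclear cycle 12 on and in both sexes. They are the regions of the female cycle 12 H4K16ac peak list on arms 2L, 2R, 3L and 3R that shared at least 1 bp with a region of each of 7 other H4K16ac lists: female cycles 13, 14 and 2-4 h, and male cycles 12, 13, 14 and 2-4 h. The members were thus selected on measured H4K16ac peaks, so their H4K16ac width, fold and overlap from cycle 12 on are given as description only. Of 3698 autosomal regions in the female cycle 12 list, 2076 met this rule (56.1%), out of 124393 regions in the 25 lists of the series. They are called held regions below, and the remaining 1622 are called the other regions.

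The study mapped H4K16ac, CLAMP and MSL3 by chromatin immunoprecipitation and sequencing in 66 samples of sexed embryos, 10 of them H4K16ac, 16 CLAMP, 8 MSL3, 16 IgG and 16 input. Sex came from meiotic drive fathers. Those that gave daughters were SPSD/SD72 with a + X over Dp(2:y) CB25-4, y+, which also carries Rsp[s]B[s], and those that gave sons were SPSD/SD72 with an X that is 19-3, yw and also Rsp[s]-B[s]. All mothers were yw; attP2{PCNA-EGFP}, so every embryo of both sexes came from a drive father and a mother with the PCNA-EGFP transgene, whose nuclear fluorescence was used to sort embryos by hand. A sample of cycles 11 to 14 pooled 200 embryos, and the 2-4 h label gives an age in hours and no cycle. Each sex and stage had a single list for H4K16ac and for CLAMP, and males had one for MSL3; where the labels give replicate samples, the list is filed under 1 of them. Peak names end in BR1 or BR2 in those lists, in FULL in the H4K16ac lists of the cycles and in all lists of cycle 11, and in FULL_NI at 2-4 h, and neither labels nor headers say what these endings mean, so a list may hold pooled samples. With a single list, no value has a replicate error, and no difference was tested. The shares below have exact Clopper-Pearson 95% intervals, which cover counting error only, and neighbouring regions are not independent. Read depth was unknown.

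H4K16ac is laid down by the acetyltransferase MOF and loosens the packing of nucleosomes. In flies MOF works in a pair of complexes: the male-specific lethal (MSL) complex, which acetylates the male X chromosome for dosage compensation, and the non-specific lethal (NSL) complex, which acts at promoters of housekeeping genes on all chromosomes in both sexes. CLAMP, a maternally supplied protein with zinc fingers, recognises GA-rich DNA and recruits the MSL complex to the X, and it also binds many autosomal sites. MSL3 is the chromodomain subunit of the MSL complex. Nuclear cycles 11 to 13 are the last fast syncytial divisions, and the main wave of zygotic transcription comes in cycle 14.

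The 10 held regions of highest fold in the female cycle 12 list had folds from 5.26 to 6.11. Each region is named by the protein-coding gene it overlapped most. By this fold enrichment, which is the authors' value for a peak over its local background, the first was Top2, the gene of DNA topoisomerase II (2L 19452099 to 19453511, dm6). Its fold was 6.11, 4.35, 4.19 and 3.60 in females at cycles 12, 13, 14 and 2-4 h, and 5.41, 3.79, 4.14 and 3.82 in males. After it came Cpsf6, a subunit of the mRNA 3′ end cleavage machinery (3L 8314060 to 8315560, 5.79), Lam, the B-type lamin (2L 5541446 to 5543816, 5.65), CCT4, a subunit of the cytosolic chaperonin (2L 12692018 to 12693630, 5.51), and LBR, the lamin B receptor (2R 21719155 to 21721415, 5.48). Then followed Sce, the Polycomb ubiquitin ligase of histone H2A (3R 27681440 to 27682057, 5.37), CG7367 (5.37), msl-2, whose protein is made in males only and limits MSL complex assembly (2L 3464162 to 3467047, 5.33), PDZ-GEF, a guanine nucleotide exchange factor (5.27), and PolI (5.26). The msl-2 region lay over 2 protein-coding genes. Like every held region, it was in female and male lists by the rule. Its fold was 5.33, 4.25, 3.71 and 2.44 in females from cycle 12 to 2-4 h and 5.17, 10.4, 4.16 and 2.33 in males.

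Folds have no common scale between lists, so a region was also ranked by its fold among the autosomal regions of each list. Cpsf6 had the highest lowest rank of all held regions: it was at or above percentile 96.1 in each of the 8 lists, with fold 5.79, 4.13, 4.13 and 4.93 in females and 5.88, 9.95, 4.64 and 4.75 in males. Pomp, a proteasome maturation factor, followed (2L 20787697 to 20788335, percentile 94.0), then Prp8, the core protein of the spliceosome (2R 12162196 to 12163188, 92.4), glu, a condensin subunit (2L 16737746 to 16738981, 91.9), and CG31342 (91.3). The next were row (90.9), eIF3f1, a translation initiation factor (90.7), Rm62, an RNA helicase (89.4), Madm (89.4) and osa, a subunit of the Brahma chromatin remodelling complex (89.4). Top2 shows how rank and fold part: first by fold in the female cycle 12 list, its lowest percentile was 42.6, in the male cycle 13 list.

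**Figure D1:**
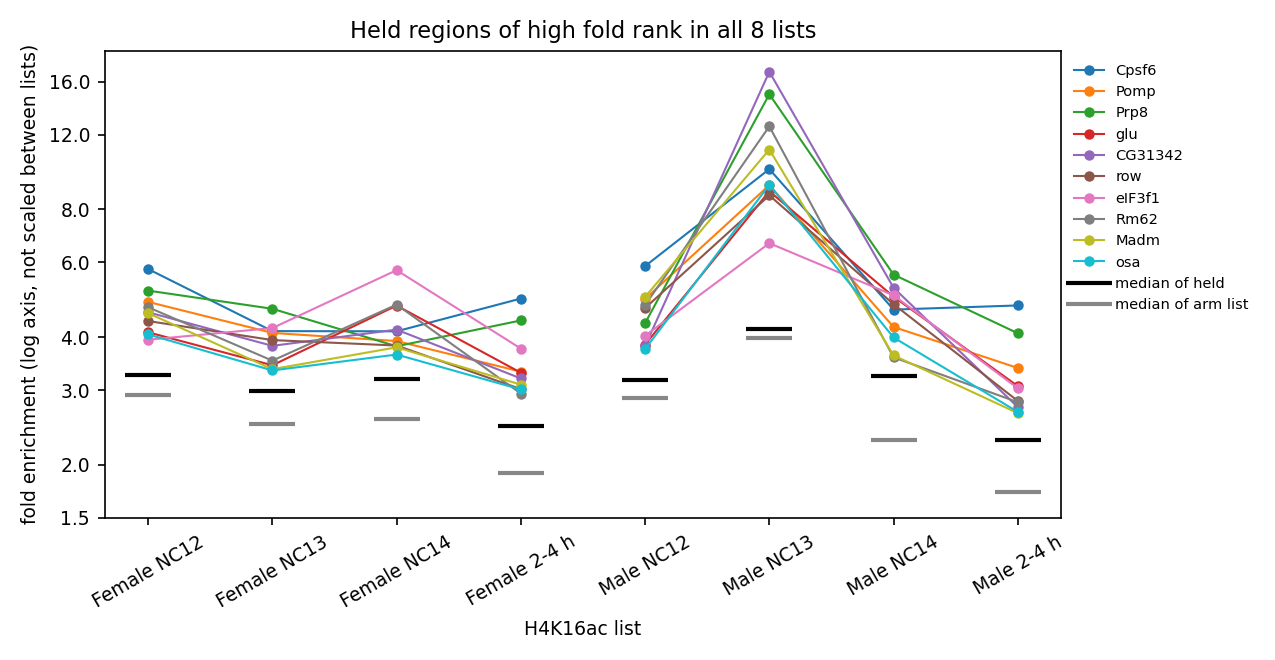
Fold enrichment (vertical log axis) of the 10 held regions whose lowest percentile rank over the 8 H4K16ac lists was highest, in each list (horizontal axis); lines join lists of 1 sex, black bars are the median of the 2076 held regions and grey bars the median of all autosomal regions of that list. The male cycle 13 list holds the highest values of all 10 regions, up to 16.9 for CG31342, while the medians of held regions and of the whole list lie close together there (4.18 and 3.99); folds are not scaled between lists.

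In width and fold, the values that the rule itself favours, the held regions stood above the others. Their median width was 1370.5 bp, with quartiles of 792 and 2082 bp and a range of 147 to 7384 bp, beside a median of 521 bp for the other regions and 938.5 bp for all. Their median fold in the female cycle 12 list was 3.25 (range 2.102 to 6.11), beside 2.52 for the other regions (2.04 to 5.17) and 2.91 for all. Of regions under 500 bp, 21.4% were held (211 of 986), and of those of at least 2 kb, 91.6% (558 of 609). Under the 1 bp rule a wide region has more bases in which to meet another list. The 6 widest held regions each overlapped from 2 to 6 protein-coding genes. They lay over fax, a gene of axon connectivity (3L 16407426 to 16414809, 7384 bp, over 2 genes), Mo25, a scaffold of kinase complexes (7161 bp, over 6 genes), UQCR-C2, a subunit of respiratory complex III (7118 bp), CG42516 (6885 bp), CG7139 (6792 bp) and Art7, an arginine methyltransferase (6480 bp).

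**Figure D2:**
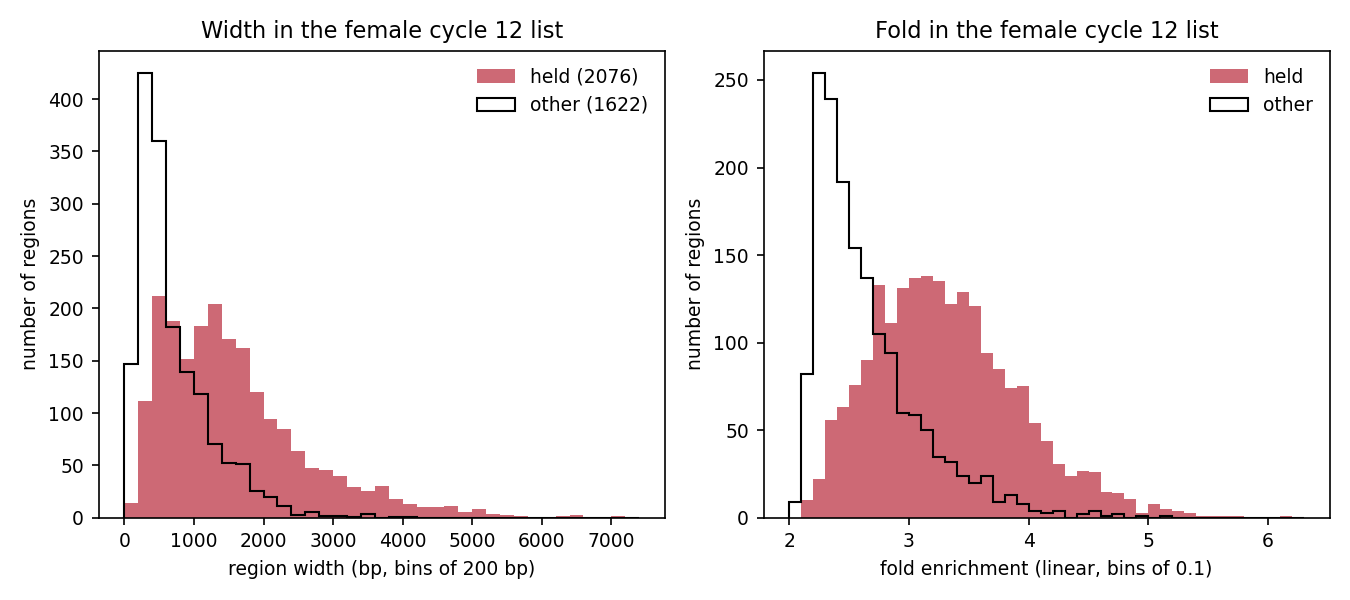
Number of autosomal regions of the female cycle 12 H4K16ac list by width in bp (left) and by fold enrichment (right), for 2076 held regions (filled) and 1622 other regions (outline). Held regions peak at larger values on both axes, with medians of 1370.5 bp and fold 3.25 against 521 bp and fold 2.52, and the sets overlap over most of the range.

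The lists shared the place of a held region but differed in how far it reached. The female cycle 13 list covered 87.9% of the base pairs of the held regions, female cycle 14 72.2% and female 2-4 h 79.3%. Coverage by the male lists of cycles 12, 13, 14 and 2-4 h was 81.6%, 56.2%, 83.7% and 82.3%. A stretch present in all 8 lists existed in 2019 of the 2076 regions, with a median of 453 bp, and together these stretches made up 41.6% of the held base pairs. In the other 57 regions every list was met, but no base was common to all. The same positions took up a smaller part of the later lists, which are longer: regions on a held region were 58.2% of the male cycle 12 autosomal regions, 44.0% and 39.4% of those at cycle 13 in females and males, 43.0% and 31.6% at cycle 14, and 32.3% and 30.4% at 2-4 h.

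The male cycle 13 list stood apart. It covered the smallest part of the held regions, and its median fold at them was at percentile 56.5 of that list against 67.4 to 82.9 in the other 7 lists. Of 687 regions that missed exactly 1 list, 569 missed this one, while 61 missed male cycle 12, 48 female cycle 14, 5 female 2-4 h, 3 male 2-4 h and 1 female cycle 13. The 569 regions missed the male cycle 13 list by a median of 2886 bp. Without that list as a requirement there would be 2645 held regions. The order of folds within the held set was closest between the sexes at 2-4 h. Across the 2076 regions Spearman's rho between female and male fold was 0.72 at cycle 12, 0.67 at cycle 14 and 0.93 at 2-4 h, but 0.25 at cycle 13, where the female list stood nearer to male cycle 14 (0.59). Between successive female lists it was 0.42, 0.51 and 0.28. These are descriptions over regions of single libraries that share the same set, and wide regions take the highest of several folds.

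At the edge of the rule, the held region with the least overlap lay over RpS12, a ribosomal protein gene (3L 13022162 to 13024511), and shared 2 bp with the male cycle 13 list. CG4676 (2 bp, male cycle 12), Roe1, a mitochondrial chaperone factor (20 bp, male cycle 13), and CG7420 (25 bp, male cycle 13) followed. Just outside, regions over mtd, CG4036, Suv3, a mitochondrial RNA helicase, and Mhcl missed the male cycle 13 list by 1, 6, 12 and 13 bp and met all the others. For these named regions the outcome rested on few bases of 1 list, male cycle 12 for CG4676 and male cycle 13 for the rest. They were picked as extremes, and how many other regions lie as close was not counted.

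Cycle 11 was not used by the rule. The female cycle 11 H4K16ac list overlapped 1976 of the 2076 held regions, 95.2% (94.2 to 96.1), beside 53.2% of the other regions (50.7 to 55.7) and 76.8% of all. The male cycle 11 list has only 1049 autosomal regions and overlapped 641 held regions, 30.9% (28.9 to 32.9), beside 11.7% of the others (10.1 to 13.3) and 22.4% of all. Read from the other side, 56.3% of the female and 66.6% of the male cycle 11 autosomal regions lay on a held region. The female share was higher in held than in other regions in each width class: under 500 bp it was 82.0% against 39.7%, from 500 bp to 1 kb 91.9% against 55.6%, from 1 to 2 kb 97.3% against 76.7%, and from 2 kb 99.8% against 88.2%. In males the classes under 500 bp gave 6.64% and 6.19%, and those from 2 kb 55.0% and 39.2%. In these classes and from 1 to 2 kb the intervals of the male shares overlapped, from 2 kb by little (50.8 to 59.2 and 25.8 to 53.9). Whether these shares differ was not tested. Only from 500 bp to 1 kb were the intervals separate, at 20.8% (17.2 to 24.7) against 10.7% (8.05 to 13.8). Within a 500 bp window at the middle of each region, which searches the same length everywhere, the cycle 11 shares of held and other regions were 87.4% and 50.2% in females (71.1% of all) and 22.5% and 10.5% in males (17.3% of all). For regions under 500 bp, 211 held and 775 other, the window reaches outside the region. At that cycle the female list covered 67.5% of the length of the median held region and the male list 0%. Cpsf6 again stood high, with fold 5.41 in females and 6.01 in males at cycle 11, while the region over CG7367 was absent from the male cycle 11 list.

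CLAMP overlapped nearly all held regions at 2-4 h and a minority at the earlier cycles. The 2-4 h lists overlapped 1911 held regions in females, 92.1% (90.8 to 93.2), beside 58.6% of the others (56.1 to 61.0) and 77.4% of all. In males they overlapped 1879, 90.5% (89.2 to 91.7), beside 56.5% (54.1 to 59.0) and 75.6% of all. The 2-4 h lists of both sexes met the same held region in 1851 cases (89.2%), beside 890 of the others (54.9%). In the 500 bp window the 2-4 h shares were 82.9% against 57.0% in females (71.6% of all) and 79.6% against 54.9% in males (68.8% of all). Held regions under 500 bp had CLAMP in 75.8% (females) and 73.9% (males), against 46.3% and 43.5% of the other regions of that width, and those of at least 2 kb in 97.5% in either sex, against 88.2% and 92.2%.

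Before 2-4 h, CLAMP met fewer held regions, and its lists were shorter at every cycle than at 2-4 h. The female lists of cycles 11, 12, 13 and 14 have 3999, 1307, 2838 and 389 autosomal regions, and the male ones 117, 497, 3873 and 6969, against 8116 and 8349 at 2-4 h. Female CLAMP overlapped 42.0% of held regions during cycle 11 (23.8% of the others, 34% of all) and 10.2% during cycle 12 (7.71% and 9.11%). It overlapped 27.7% in cycle 13 (18.1% and 23.5%) and 3.47% in cycle 14 (1.66% and 2.68%). Male CLAMP overlapped 0.289% in cycle 11 (0.247% of the others, 0.27% of all), 2.70% in cycle 12 (2.40% and 2.57%), 39.9% in cycle 13 (24.4% and 33.1%) and 23.9% in cycle 14 (10.3% and 17.9%).

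With the 500 bp window the held share before 2-4 h lay nearer to that of the other regions in each list but those of cycle 11 and 12 males. At cycle 12 it was then the lower one, 5.78% against 6.41% in females (6.06% of all) and 1.16% against 2.03% in males (1.54% of all), with intervals that overlapped. The window reaches outside regions under 500 bp, which were more common among the others. Female shares were 31.0% against 22.1% in cycle 11 (27.1% of all), 19.5% against 15.97% in cycle 13 (17.9% of all) and 2.02% against 1.73% in cycle 14 (1.89% of all). Male shares were 0.0963% against 0.247% in cycle 11 (0.162% of all), 28.2% against 22.01% in cycle 13 (25.5% of all) and 11.0% against 9.12% in cycle 14 (10.2% of all). Split by width class, the lists did not all go one way. For cycle 11 females and cycle 13 of both sexes, the intervals of held and other regions overlapped in every class; male cycle 13, for example, gave 13.3% against 15.2% under 500 bp and 62.9% against 58.8% from 2 kb. Female cycle 12 CLAMP was lower in held regions, with separate intervals, under 500 bp (0.474%, 0.0120 to 2.61, against 4.26%, 2.95 to 5.93) and from 1 to 2 kb (8.10%, 6.34 to 10.2, against 15.1%, 11.3 to 19.5). Male cycle 12 was also lower from 1 to 2 kb (1.67%, 0.914 to 2.78, against 5.35%, 3.14 to 8.42). Male cycle 14 was higher in held regions from 2 kb (38.5%, 34.5 to 42.7, against 13.7%, 5.70 to 26.3). Intervals overlapped in the remaining classes of the cycle 12 and male cycle 14 lists. They also did in every class of cycle 11 males and cycle 14 females. What part width plays was not tested.

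**Figure D3:**
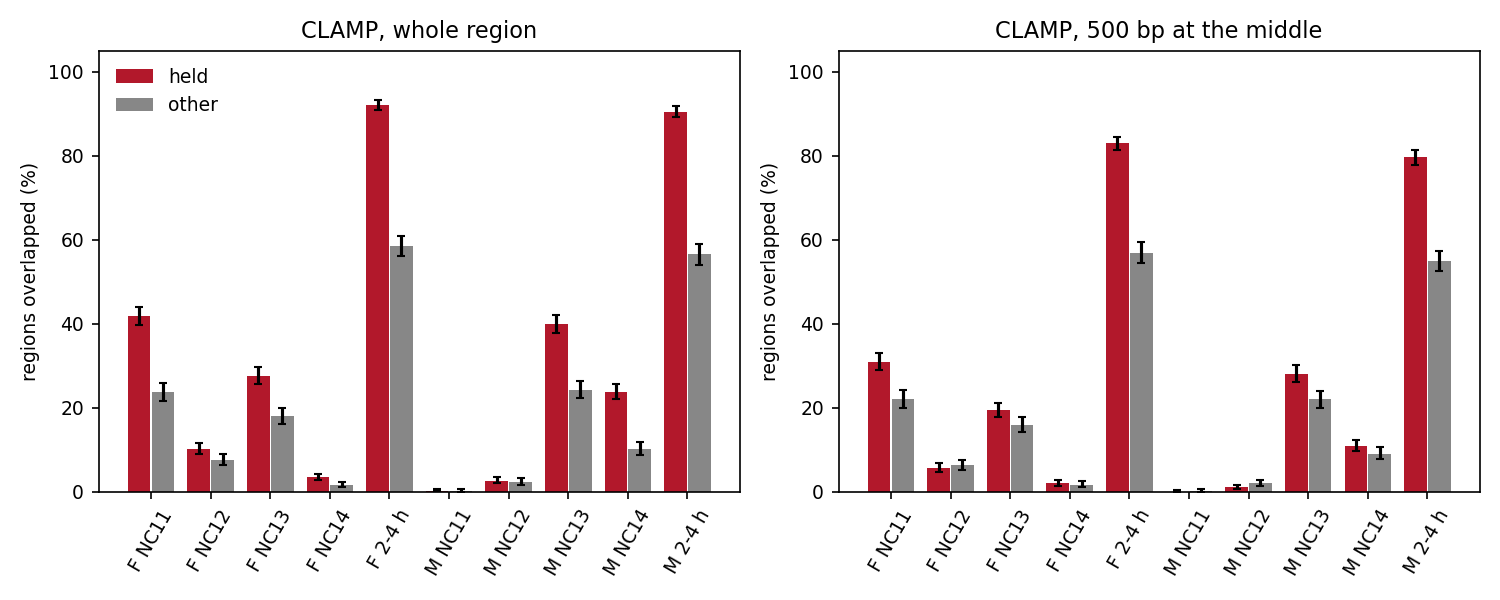
Share of regions overlapped by each of the 10 CLAMP lists (F female, M male) for held and other autosomal H4K16ac regions, with the whole region searched (left) or a 500 bp window at its middle (right); error bars are exact 95% intervals for counting error only. The 2-4 h lists reach 92.1% and 90.5% of held regions on the left and 82.9% and 79.6% on the right, where other regions are at 57.0% and 54.9%, while the female and male cycle 12 shares turn round.

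The fold of CLAMP regions was compared within each list. At 2-4 h the CLAMP regions on a held region had a median fold of 4.56 in females and 5.04 in males, and those off the whole female cycle 12 H4K16ac list 3.66 and 4.26. Among the 8 earlier lists the median was lower on held regions in 6 and higher in cycle 14 females (4.20 against 4.15) and cycle 12 males (5.21 against 4.90). Those 6 were cycle 11 females (2.98 on held regions against 3.33 off the list), cycle 12 females (4.02 against 4.18), cycle 13 females (3.97 against 4.42), and males of cycle 11 (3.73 against 4.38, from 6 regions on held), cycle 13 (3.14 against 3.31) and cycle 14 (4.62 against 4.70). Held regions span 3.33 Mb, 3.06% of the 4 arms, and 23.2% of female and 23.9% of male 2-4 h CLAMP summits fell inside them. The lists of cycle 11 females and of cycle 13 gave 23.2 to 24.4%, cycle 14 females 18.1%, cycle 12 females 16.5%, cycle 12 males 11.3%, cycle 14 males 6.93% and cycle 11 males 3.57%.

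Most held regions had CLAMP at 2-4 h together with an earlier cycle. There were 1115 such regions (53.7%), beside 29.0% of the others. Another 824 (39.7%) had it at 2-4 h and at no cycle, beside 31.2% of the others, and 25 (1.20%) at a cycle only, beside 4.13%. The commonest number of lists was 2, met by 759 held regions (36.6%) and by 27.8% of the others. All 10 lists met 5 held regions (0.241%), beside 1 of the others (0.0617%). The 5 held ones lay over Rexo5, an RNA exonuclease (3L 6605716 to 6606539), HDAC1, the histone deacetylase also called Rpd3 (3L 4625373 to 4628024), Pp1-87B, a catalytic subunit of protein phosphatase 1 (3R 12425309 to 12426966), Cpr, the reductase of cytochrome P450 (2L 6337897 to 6339704), and the zinc finger gene lola (2R 10533290 to 10538858). At Rexo5 the CLAMP fold was 12.8, 10.7, 14.1, 7.67 and 23.8 in females from cycle 11 to 2-4 h and 3.23, 6.01, 10.8, 9.90 and 29.7 in males. Its H4K16ac was moderate, with folds of 2.98, 2.97, 3.33 and 3.69 in females and 2.49, 3.12, 3.52 and 3.06 in males from cycle 12, and it was in neither cycle 11 H4K16ac list. At HDAC1 the CLAMP fold was 12.3, 19.5, 27.1, 9.21 and 13.4 in females from cycle 11 to 2-4 h and 7.54, 15.7, 17.4, 10.6 and 16.9 in males, on scales that differ between lists, and H4K16ac had fold 3.77 at female cycle 12. Another 29 held regions met 9 lists (1.40%), a share near that of the others (20 regions, 1.23%). The held one of these with the highest male 2-4 h CLAMP fold lay over CG12010 (24.1).

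No CLAMP list met 112 held regions (5.39%, 4.46 to 6.46), beside 578 of the others (35.6%). They were narrower than the held set, with a median of 627.5 bp, and had a median fold of 2.75. Those of highest fold were over CG1116 (3R 5219630 to 5220333, fold 4.74), Helz, a helicase gene (3L 14789363 to 14791116, 4.43), CG9536 (4.28), CG5989 (4.26), CG11560 (4.05) and ArfGAP1, a GTPase-activating protein of the Golgi (4.00). All 6 were also in the female cycle 11 H4K16ac list, with fold from 2.60 to 3.88, and Helz was in the male cycle 11 list too (3.47), so H4K16ac was listed at these regions in at least 9 lists and CLAMP in none.

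**Figure D4:**
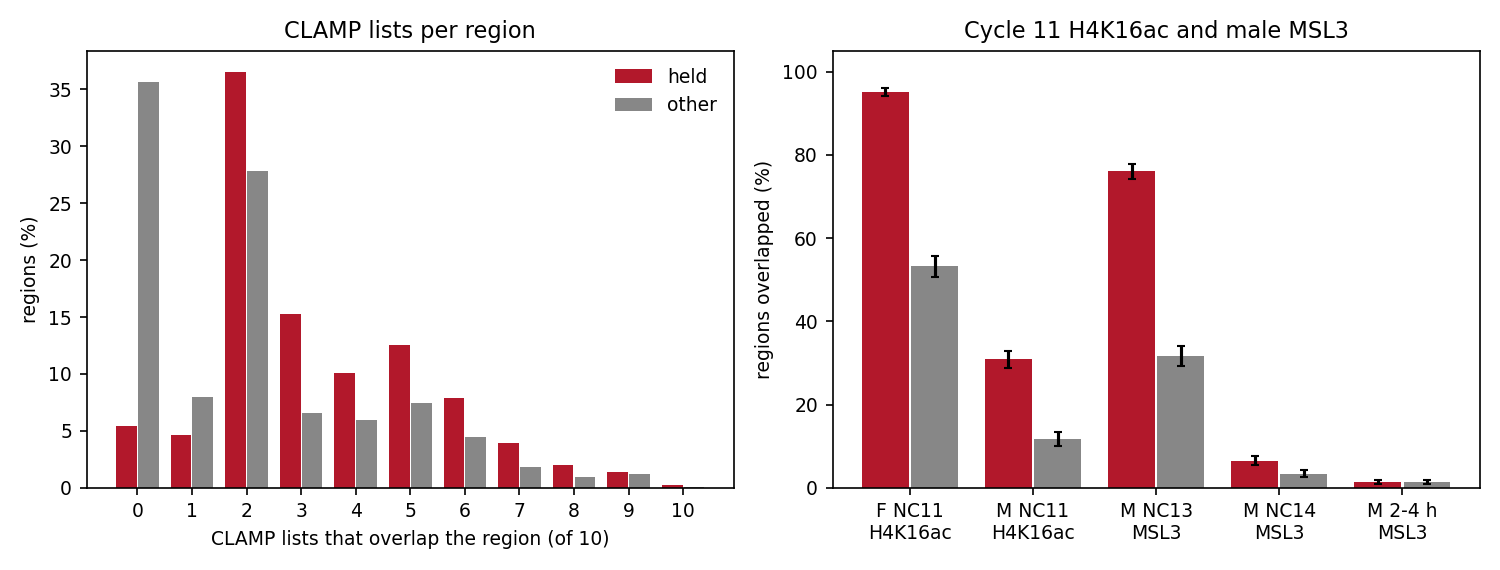
Left, share of held and of other autosomal H4K16ac regions by the number of the 10 CLAMP lists that overlap them; right, share overlapped by H4K16ac at cycle 11 and by male MSL3, with exact 95% intervals for counting error only. Held regions peak at 2 lists (36.6%) and others at 0 (35.6%). The held bars on the right are at 95.2% and 30.9% for female and male cycle 11 H4K16ac. For male MSL3 they are at 76.1%, 6.45% and 1.40% at cycle 13, cycle 14 and 2-4 h.

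MSL3 was rare at held regions except in the male cycle 13 list, which has 13183 autosomal regions. That list overlapped 76.1% of held regions (74.2 to 77.9), 31.6% of the others and 56.6% of all; the 500 bp window gave 46.1% and 26.2% (37.4% of all). At cycle 14 the share was 6.45% (5.44 to 7.60), beside 3.39% and 5.11% of all, and in the window it was 1.78%, lower than the 2.59% of the others (2.14% of all). By width it was 0.474% against 2.58% under 500 bp and 3.00% against 2.93% from 500 bp to 1 kb. From 1 to 2 kb it was 6.19% against 4.72%, and from 2 kb 12.0% against 11.8%, with overlapping intervals in each class. At 2-4 h it was 1.40%, beside 1.29% and 1.35% of all, and the intervals overlapped, with 1.01% and 1.11% in the window (1.05% of all). Cycle 11 met 1 held region (0.0482%, beside 0.0617% of the others and 0.0541% of all). Cycle 12 met 0 of 2076, and 0% of all. A single held region was met by MSL3 at both cycle 14 and 2-4 h, over CG9410 (2R 6667044 to 6670432, MSL3 fold 2.16 and 2.60).

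Held regions lay over genes, and most of them held a start or end of a gene. A protein-coding gene of the RefSeq table lay under 2061 of them, 99.3% (98.8 to 99.6), beside 90.01% of the other regions, and 7 had no protein-coding gene of the table within 1 kb. Those 7 included a pair at 3R 21359003 to 21360747 and 3R 21364712 to 21366619, inside the separately annotated pre-mod(mdg4) exons whose RNA is trans-spliced to mod(mdg4). A start or end of a protein-coding gene lay inside 76.9% of held regions, beside 28.1% of the others, and within the 500 bp window of 56.5% and 29.5%. By width, a start or end lay inside 18.5% of held regions under 500 bp (7.61% of the others) and 95.5% from 2 kb (76.5%). The table gives no strand, so starts and ends could not be told apart. Parts of 2 or more protein-coding genes lay under 1349 held regions (64.98%) and under 20.8% of the others. From 1 to 2 kb in width these shares were 83.9% and 52.2%, and under 500 bp 8.53% and 7.23%, with intervals that overlapped in the smallest class. A whole protein-coding gene was inside 265 held regions (12.8%), beside 1.11% of the others.

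In all, 4369 of 11639 autosomal protein-coding genes (37.5%) had a held region over the gene or within 1 kb. By gene length the share was 22.2% under 1 kb, 38.4% from 1 to 2 kb, 47.5% from 2 to 5 kb, 42.7% from 5 to 20 kb and 25.6% above. Among small RNA genes, 110 of 237 snoRNA genes (46.4%) and 18 of 266 tRNA genes (6.77%) had one; many snoRNAs are processed from introns of host genes. Of lncRNA genes 4.58% had one.

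Gene lists of chromatin and housekeeping functions had held regions at most members, and lists of patterning genes at few or none. The intervals of the cell cycle, segment polarity, first-wave and pioneer lists, given below, included the 37.5% of all genes. Part of the contrast between lists lay in having any region of the female cycle 12 list, held or other. Such a region was at 5714 of 11639 protein-coding genes (49.1%), and a held one at 4369 of these. Among genes with any region, a held one was at 13 of 16 Polycomb and Trithorax and 9 of 13 cell cycle genes, beside 4369 of 5714 in all. It was at 54 of 63 ribosomal, 25 of 28 proteasome, 5 of 11 first-wave and 3 of 5 pioneer genes. It was also at 0 of 2 Hox, 1 of 5 dorsoventral, 2 of 4 segment polarity and 2 of 4 receptor genes. These shares were not tested between lists. Every autosomal gene of the list of MOF complex subunits and H4K16 deacetylases had a held region, 11 of 11 (71.5 to 100%, beside the 37.5% of all genes). The MSL subunits were msl-2 (fold 5.33), msl-3 (4.34), msl-1 (3.78) and the helicase gene mle (3.47). The NSL subunits were MBD-R2 (4.89), Rcd1 (4.55), dgt1 (4.35), Rcd5 (3.71) and nsl1 (3.50), and the deacetylases were HDAC1 (3.77) and Sirt1 (3.35). All 11 autosomal insulator protein genes had one too. They were led by su(Hw) (5.22), mod(mdg4) (4.46) and Cp190 (4.43), whose proteins act together at insulators, and pita (4.05), with CTCF the lowest (2.78); the neighbours Ibf1 and Ibf2 share a region (3.25).

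Cytoplasmic ribosomal protein genes had a held region in 54 of 64 cases (84.4%, 73.1 to 92.2), with RpL40 (4.96), RpL36A (4.61) and RpS30 (4.42) among the highest. Of the 10 without one, 9 had another region of the female cycle 12 list, among them RpL5 and RpS9, and RpS5b had none. Proteasome subunits had one in 25 of 28 cases (89.3%, 71.8 to 97.7), led by the lid subunits Rpn3 (5.04), Rpn6 (4.54) and Rpn7 (4.42). Among Polycomb and Trithorax group genes it was 13 of 17 (76.5%), led by Sce (5.37), mor, a Brahma complex subunit (4.11), Scm (4.10) and Su(z)12, a subunit of the H3K27 methyltransferase complex (4.07), while Su(z)2, trx and Utx had only other regions and Psc none. Cell cycle genes of the mid-blastula transition had one in 9 of 15 cases (60%, 32.3 to 83.7), with fzy, an activator of the anaphase-promoting complex (4.51), CycB (4.15), CycA (4.07) and Cdk1 (4.01) the highest. The phosphatase gene stg, whose zygotic transcription times the cycle 14 mitosis, and the Cdk inhibitor gene dap had no region of the female cycle 12 list at all. At RpL23A, RpS4, RpL39, Prosalpha1, Prosalpha2, Rpn10 and lok the held region of highest fold lay within 1 kb and not over the gene.

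No held region, and no other region of the female cycle 12 list, lay at any of 9 autosomal gap and anterior-posterior genes (hb, kni, Kr, tll, hkb, knrl, cad, bcd and ems; 0%, up to 33.6%) or of 9 pair-rule genes, eve, ftz and prd among them (0%, up to 33.6%). The 8 Hox genes had 0 held regions (up to 36.9%), with other regions at lab and Antp. Dorsoventral genes had 1 of 21 (4.76%), the peptidase gene Ance (2.89), whose region lay within 1 kb of the gene and not over it. No region of the female cycle 12 list lay at dl, twi or sna. Segment polarity genes had 2 of 11 (18.2%, 2.28 to 51.8), smo, the Hedgehog signal transducer (3.94), and hh, the ligand gene (3.43). The smo region overlapped the neighbouring CG17078 most, and the hh region lay within 1 kb of hh and not over it. First-wave zygotic and cellularisation genes had 5 of 16 (31.2%, 11.0 to 58.7), with Nrt (3.75, within 1 kb and not over the gene), Sry-alpha (3.57), dnk (3.45) and Bro (3.11). Of the rest, 6 more had other regions, among them slam and bnk. Among pioneer and GA-binding factors it was 3 of 6 (50%, 11.8 to 88.2): Adf1 (4.22), lolal (3.94) and Trl, which encodes the GAGA factor (3.44). The Clamp gene itself had only another region. Odorant and gustatory receptor genes, which are used in sensory neurons, had a held region in 2 of 62 cases (3.23%, 0.393 to 11.2). These were Gr97a (3.51), with the region within 1 kb and not over the gene, and Or85f (3.01). The region at Or85f is the one at the neighbouring ribosomal gene RpL34b.

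**Figure D5:**
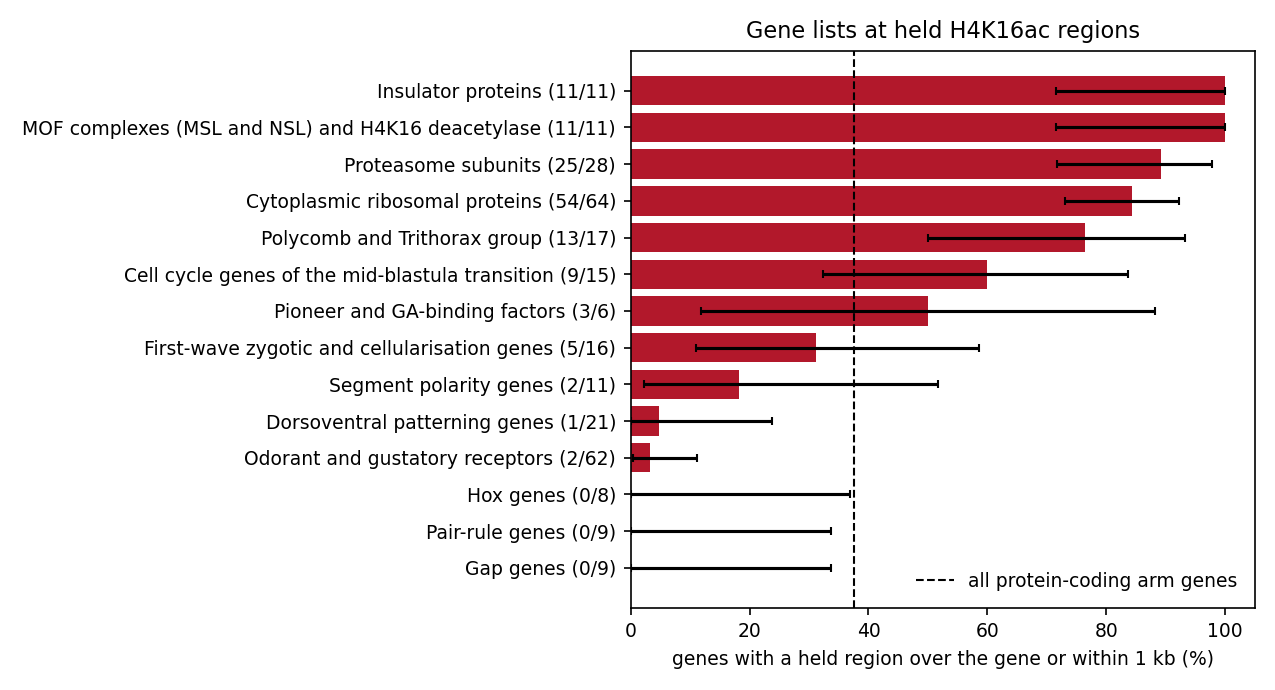
Share of the autosomal protein-coding members of 14 gene lists with a held H4K16ac region over the gene or within 1 kb, with exact 95% intervals for counting error only; numbers after each name give members with a held region and members on the arms, and the dashed line is the 37.5% of all 11639 genes. MOF complex and insulator genes reach 11 of 11, and gap, pair-rule and Hox genes are at 0.

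Neighbouring genes can share a region, so a list's count is not a count of independent regions, and what else sets the lists apart was not tested. When the male cycle 13 list was not required, the counts were 11 of 11 for both of the first lists, 60 of 64 ribosomal, 27 of 28 proteasome and 13 of 15 cell cycle genes, and still 0 for gap and pair-rule genes, but 1 for Hox, 2 for dorsoventral, 5 of 6 for pioneer and 8 of 16 for first-wave genes.

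Held regions were spread over the 4 arms at similar density. There were 446 on 2L (57.6% of the arm's regions), 536 on 2R (55.3%), 477 on 3L (53.4%) and 617 on 3R (58.1%), or 19.0, 21.2, 17.0 and 19.2 per Mb, and the intervals of the 4 shares overlapped. The densest 1 Mb stretches held 39, 44, 34 and 41. Close to the centromere they were scarce, with 5, 1, 0 and 0 in the nearest 2 Mb, where the female cycle 12 list had 41, 11, 12 and 1 regions. The median gap between neighbours was 9908, 10081, 13690.5 and 11724 bp. On X the same rule would keep 486 of 993 regions, 48.9% (45.8 to 52.1), beside 56.1% (54.5 to 57.7) on the arms.

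The covered share of held regions differed between the sexes, least at 2-4 h. The edges of held regions come from the female cycle 12 list, so the 2 sexes are compared within female edges. At cycle 12 this fixes the female median at 100%, with 88.5% in males and 0 regions covered more in males. In cycle 13 the female list covered 99.0% of the median region and the male list 60.2%, and 1755 were covered more in females against 135 in males. In cycle 14 these were 83.4% and 95.3%, with 303 and 1329. At 2-4 h they were 92.8% and 95.8%, with 511 and 915 and 650 equal. Each direction rests on 1 list per sex. Differences in sequencing or immunoprecipitation between those libraries, and the use of female edges, cannot be told apart from sex.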

How the data were processed

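Peak lists of 25 samples were used as deposited, with coordinates on dm6 written from 1. The submitters' processing notes name Bowtie2, Picard, SAMtools 1.9 and MACS2 2.1.1 but give no settings; the control library and any pooling of replicates are not given in the sources used here, nor is the H4K16ac antibody. The IgG and input samples were not analysed here. The authors' fold enrichment is a ratio of each peak to its local background, and the authors deposited −log10 p-values and −log10 q-values beside it; the lowest −log10 q of the H4K16ac lists was 1.30. The deposited score column was not used. Narrow CLAMP peaks that share a region were counted once with the highest fold, and their deposited summit offset, another value of the caller, gave summit positions.

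Overlap was at least 1 bp. Gene positions came from RefSeq (Release 6, 17872 genes), matched by symbol or synonym; it is not complete, and 4 listed names were not matched. A region was credited to the protein-coding gene it overlapped most, else the nearest within 1 kb. Genes were named by fixed rules: highest fold, width, lowest rank over lists, most or no CLAMP lists, MSL3, smallest overlap or miss, and highest fold per gene list, up to 10 each; a gene the rules would name is not reported here. With 1 list a group there was no test; shares have exact Clopper-Pearson 95% intervals. The members, lists and rules were chosen with earlier results of these data known. Overlap code was tested on simulated regions. Python 3.11.15, numpy, pandas, scipy and matplotlib were used.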

Additional observations from a re-analysis of the deposited data

How the results depend on the processing

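Of 155 values recomputed under alternatives, 118 stayed within 1.5 times (counts) or within the 95% interval (shares and medians) and 37 moved. Requiring 50% of each region to be covered left 1049 held regions, with median width 1198 bp, fold 3.35, female and male cycle 12 CLAMP at 8.87% and 1.91%, and 21.0% of genes. A −log10 q of at least 5 in every list left 382, with 1780 bp, fold 3.70, 2-4 h CLAMP at 97.9% (female) and 97.1% (male), cycle 12 CLAMP at 13.4% and 4.19%, cycle 11 H4K16ac at 39.3% and 2.88%, MSL3 at 0% at cycle 14 and 0% at 2-4 h, and 8.44% of genes; the filter shortens every list, cycle 11 and MSL3 included. Taking the regions from the male cycle 12 list gave median width 1259 bp and fold 3.15. The 500 bp window gave 82.9% and 79.6% for female and male 2-4 h CLAMP, 5.78% and 1.16% for cycle 12 CLAMP, 87.4% and 22.5% for cycle 11 H4K16ac and 1.78% for cycle 14 MSL3. Gene bodies alone gave 31.3% of genes. Leaving out the 2 Mb next to the centromere moved nothing among these values.

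Dropping each required list in turn gave between 2076 and 2645 regions, a median width from 1247 to 1370.5 bp, fold from 3.16 to 3.25, cycle 11 H4K16ac from 91.4% to 95.2% (female) and from 27.0% to 30.9% (male), and 37.5% to 44.1% of genes. Each of the far ends came from the male cycle 13 list, the cause of which was not tested. Without it, an alternative added after seeing the data, gene list counts that moved were 5 (pioneer and GA-binding), 1 (Hox), 2 (dorsoventral) and 8 (first-wave). No paired analysis was possible because each group has 1 list and no test was run. Unknown depth limits what absence from a short list, such as male cycle 11, can show.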
